A study of Mus with 15 samples.

Results

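The matricellular glycoproteins described here were the products of 10 genes, which were Fn1, Thbs1, Thbs2, Thbs3, Thbs4, Tnc, Tnxb, Postn, Sparc and Sparcl1. They were picked by symbol as families of extracellular glycoproteins, with no measured value in the rule, and all 10 were found among the 55471 genes of the deposited matrix. The samples were day 7 fat grafts, day 3 fat grafts and control adipose tissue, with 5 samples in each group, all from wild type C57BL/6 mice aged 7 weeks. Stranded libraries of their mRNA were read from both ends, at 151 bp a read. The depot of the control tissue, the site of the grafts and whether each sample came from its own animal are not given in the sources used here, so p-values measure the spread between these samples. The series as titled concerns a metabolic turn toward glycolysis that fat grafts need to survive, and the 3 comparisons ask how grafted fat differs from control fat and how the later graft differs from the earlier one.

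Matricellular proteins are secreted into the extracellular matrix, where most of them act on cells through integrins and other receptors more than they bear load. Fibronectin forms fibrils that cells assemble early in wounds, and it is the classic ligand of integrin α5β1. Thrombospondins fall into trimers (Thbs1 and Thbs2) and pentamers (Thbs3 and Thbs4), and thrombospondin 1 can activate latent TGF-β. Tenascin C is scarce in most adult tissue and appears in wounds, whereas tenascin X is a lasting part of adult connective tissue. Periostin is made by fibroblasts exposed to TGF-β, and SPARC and its relative SPARCL1 bind collagen and loosen cell adhesion.

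Total estimated counts ran from 17.1 to 32.0 M per sample. Levels are given as TPM, which is scaled per gene length and can be compared between genes. Changes are log2 fold changes ± SE of limma-voom on the counts, with Benjamini-Hochberg adjustment over 16051 tested genes and a call at an adjusted p under 0.05. The first principal component of log2(CPM + 1) (68.2% of the variance) parted grafts from controls, and the second (10.5%) parted most day 7 from most day 3 grafts. On the second, day 7 graft 5 lay at -9.3 where the other day 7 grafts lay at 19.5 to 28.0, and day 3 graft 1 lay at 1.3 where the other day 3 grafts lay at -32.3 to -14.2. Among controls, control 2 had 3930 CPM of skeletal muscle markers in sum and control 5 had 3550 CPM of macrophage markers, against 26.1 to 382 and 1338 to 1631 CPM in the others. Control 4 lay at -71.3 on the second component where the other controls lay at 9.4 to 38.9, and it had the highest adipocyte sum (45872 CPM, others 15593 to 21059 CPM) and the lowest sum of lymphocyte and lymph node markers (120 CPM, others 1262 to 1766 CPM). Without control 4, 9 of the matricellular genes were called higher in day 7 grafts and 10 in day 3 grafts, Tnxb being added. The 7 adipocyte markers summed to 1031 to 2328 CPM in day 7 grafts, 2002 to 7298 CPM in day 3 grafts and 15593 to 45872 CPM in controls, so the defining genes of fat cells were present in all samples and lowest in the grafts.

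Most of the matricellular genes rose in the grafts at both times, and none fell. In day 7 grafts 9 of 10 were called higher than in controls, where 32.2% of all tested genes were called higher and 28.4% lower, and the median change of the 10 was 3.83 on the log2 scale beside 0.03 for all tested genes. In day 3 grafts 9 of 10 were called higher than in controls, where 30.1% of tested genes were called higher and 30.3% lower, and the median was 2.48 beside -0.02. The exception at both times was Tnxb. These 2 comparisons share the same 5 controls. Higher genes were 53.1% of all called genes at day 7 and 49.9% at day 3, against 74.1 and 68.0% on a log2(TPM + 1) scale, on which those 9 genes were called as well and Tnxb was added at day 3. Between the graft times 1 of 10, Thbs4, was called, and it was higher in day 7 grafts, where 3.18% of tested genes were called higher and 1.71% lower. The median of the 10 there was 0.47 beside 0.02. Sample values in TPM did not overlap in 9 of 10 genes for day 7 grafts and controls, in 8 of 10 for day 3 grafts and controls and in 4 of 10 for day 7 and day 3 grafts. Over all tested genes the shares without overlap in these comparisons were 44.0, 39.9 and 6.75%, and the shares called in either direction were 60.7, 60.4 and 4.88%.

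**Figure D1:**
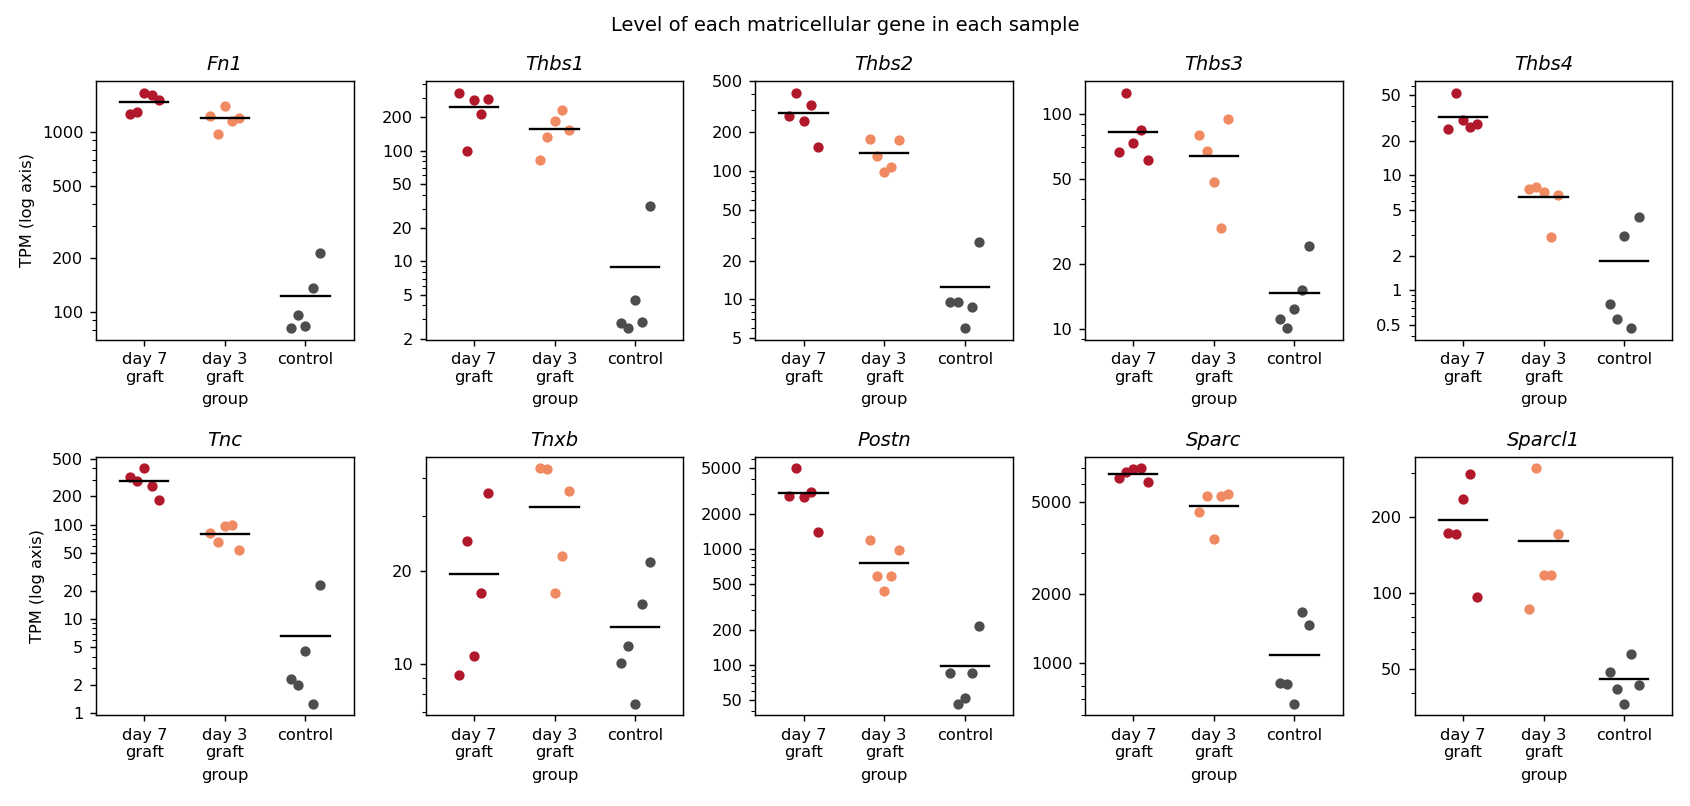
Level of each of the 10 genes in each sample, in TPM on a log axis that differs between panels, for day 7 grafts, day 3 grafts and controls (points, n = 5 each; black lines are group means). In 9 panels the graft samples sit above most or all controls, while in the Tnxb panel the 3 groups overlap.

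The 10 genes took 1.23 ± 0.162% of all TPM in day 7 grafts, 0.739 ± 0.0912% in day 3 grafts and 0.141 ± 0.0575% in controls (SD, n = 5 each). Sparc was the most abundant of the 10 in each group, with 54.5% of their summed TPM in day 7 grafts, 64.6% in day 3 grafts and 77.2% in controls. Postn took 24.0% in day 7 grafts, 10.2% in day 3 grafts and 6.61% in controls. By mean TPM Sparc held rank 11 of all genes in day 7 grafts, rank 20 in day 3 grafts and rank 93 in controls, and Postn held ranks 37, 209 and 1036 in the same order of groups. In tissue RNA, fewer cells of a type and less RNA per cell cannot be told apart, and this holds for each change below.

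**Figure D2:**
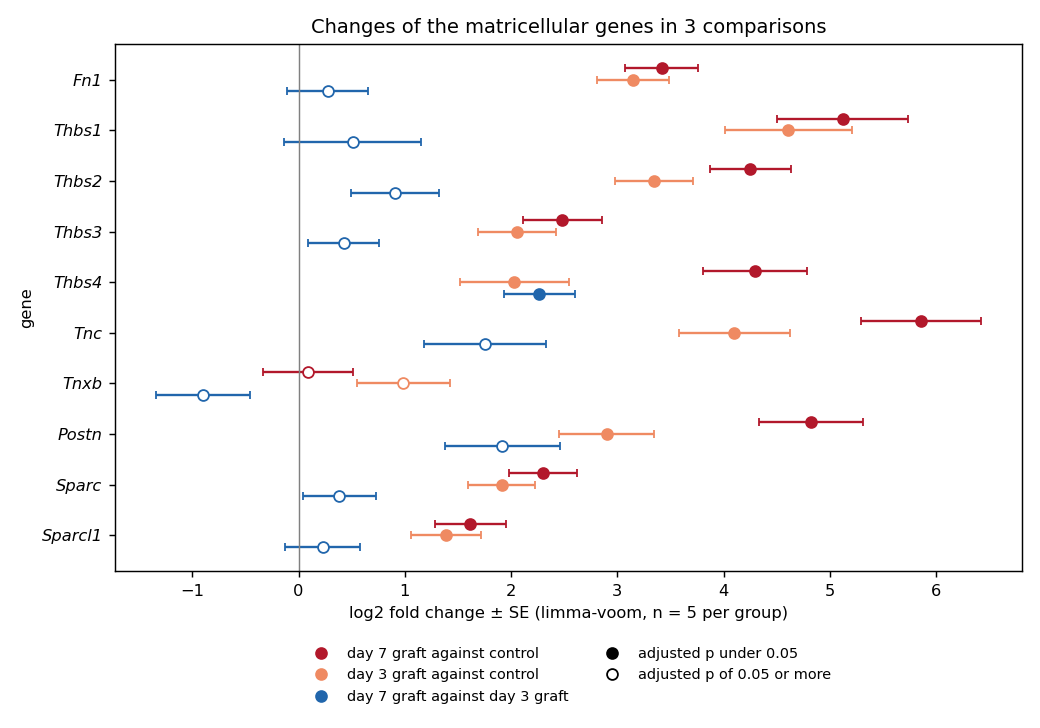
Log2 fold change ± SE of each gene for day 7 grafts against controls, day 3 grafts against controls and day 7 against day 3 grafts (limma-voom, n = 5 per group), with filled points where the adjusted p was under 0.05. Tnc had the highest value against controls at day 7 (5.86), and Thbs4 had the one filled point between the graft times (2.27).

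Fibronectin (Fn1, chr1:71585520-71653200, minus strand, mm10 as for all positions below) was at 1258, 1302, 1656, 1601 and 1515 TPM in day 7 grafts 1 to 5, at 1233, 979, 1404, 1155 and 1207 TPM in day 3 grafts 1 to 5 and at 81.8, 96.7, 83.3, 137 and 213 TPM in controls 1 to 5. All graft samples were above all controls, and the graft groups overlapped. Fn1 rose by 3.42 ± 0.34 in day 7 grafts (10.7-fold, adjusted p = 1.55e-06) and by 3.14 ± 0.34 in day 3 grafts (8.84-fold, adjusted p = 3.12e-06), both against controls. Between day 7 and day 3 grafts its difference was 0.27 ± 0.38 (95% interval -0.55 to 1.09, adjusted p = 0.755). In TPM its level varied little within the grafts, with a coefficient of variation of 12.1% in day 7 grafts and 12.8% in day 3 grafts. In controls it was 45.1%. Without scaling by length day 3 grafts spread wider, at 4333 ± 949 CPM (SD), from 2899 to 5389 CPM. The transcript length used for Fn1 ran from 4140 to 5434 bases in day 3 grafts.

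All 4 thrombospondins rose in the grafts at both times, by different amounts. Thbs1 (chr2:118111876-118127133, plus strand), the thrombospondin that platelets store, was at 333, 98.4, 289, 215 and 292 TPM in day 7 grafts, at 81.5, 134, 186, 234 and 152 TPM in day 3 grafts and at 2.77, 2.51, 4.51, 2.85 and 31.6 TPM in controls. The lowest graft sample was above the highest control, which was control 5, and control 5 stood far above the other controls. Thbs1 rose by 5.12 ± 0.62 in day 7 grafts (34.8-fold, adjusted p = 7.07e-06) and by 4.61 ± 0.60 in day 3 grafts (24.4-fold, adjusted p = 1.57e-05). Without control 5 these values were 5.76 and 5.25. The difference between day 7 and day 3 grafts was 0.51 ± 0.65 (95% interval -0.86 to 1.89, adjusted p = 0.723).

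Thbs2 (chr17:14665500-14694235, minus strand), which like thrombospondin 1 restrains the growth of vessels, was at 270.3, 408, 246, 329 and 155 TPM in day 7 grafts, at 177, 132, 97.7, 107 and 176 TPM in day 3 grafts and at 9.55, 9.52, 5.99, 8.73 and 28.2 TPM in controls. Grafts and controls did not overlap, and of the day 7 grafts only graft 5 fell within the day 3 range. Thbs2 rose by 4.25 ± 0.38 in day 7 grafts (19.0-fold, adjusted p = 5.78e-07) and by 3.34 ± 0.36 in day 3 grafts (10.2-fold, adjusted p = 3.42e-06). Day 7 against day 3 grafts gave 0.91 ± 0.42 (adjusted p = 0.238), which was called in 2 of 29 alternatives, with adjusted p-values of 0.0125 to 0.439 over all 29.

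Thbs3 (chr3:89215180-89226837, plus strand), a pentameric thrombospondin, was at 66.2, 125, 73.3, 84.0 and 60.9 TPM in day 7 grafts, at 79.8, 67.0, 48.3, 29.6 and 94.7 TPM in day 3 grafts and at 11.2, 10.2, 12.4, 15.1 and 24.4 TPM in controls. All grafts were above all controls, and day 3 graft 4 (29.6 TPM) came closest to control 5 (24.4 TPM). It rose by 2.48 ± 0.37 in day 7 grafts (5.59-fold, adjusted p = 5.15e-05) and by 2.06 ± 0.37 in day 3 grafts (4.16-fold, adjusted p = 0.000248), with 0.43 ± 0.33 between the graft times (adjusted p = 0.526). The deposited positions place Mtx1, a gene of mitochondrial protein import, on the opposite strand across all 11658 bases of Thbs3, with a mean of 20.6 CPM over all samples against 64.3 CPM for Thbs3. The sources used here do not give whether reads were counted by strand, so the Thbs3 level is uncertain by what the 2 genes may share.

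Thbs4 (chr13:92751590-92794818, minus strand), a pentameric thrombospondin found in tendon and muscle, was the least abundant of the 10 genes in grafts of day 3 and in controls, and the one called between the graft times. It was at 25.2, 52.3, 30.6, 26.3 and 27.9 TPM in day 7 grafts, at 7.63, 7.89, 7.10, 2.89 and 6.69 TPM in day 3 grafts and at 0.760, 0.560, 2.94, 0.470 and 4.32 TPM in controls. Every day 7 graft was above every day 3 graft, while day 3 graft 4 fell within the range of the controls. Thbs4 rose by 4.30 ± 0.49 in day 7 grafts (19.7-fold, adjusted p = 4.24e-06) and by 2.03 ± 0.51 in day 3 grafts (4.09-fold, adjusted p = 0.00323) against controls, and by 2.27 ± 0.33 in day 7 against day 3 grafts (4.81-fold, adjusted p = 0.00234). The last call held in all 29 alternatives, with log2 values of 2.00 to 2.36. Tendon markers were also higher in day 7 than in day 3 grafts. Their sum was 12.4 to 83.2 CPM in day 7 grafts, 0.605 to 2.04 CPM in day 3 grafts and 1.64 to 13.9 CPM in controls. In day 3 grafts, where Thbs4 was above controls, the median sum was 0.886 CPM against 11.4 CPM in controls. Of the 5 markers 3 were tested (Tnmd, Mkx and Fmod), and all 3 were called higher in day 7 than in day 3 grafts. Over all tested genes 3.18% were called higher there. Against controls 1 of the 3 was higher and 1 lower in day 3 grafts, with 30.1 and 30.3% of all tested genes. Most of the sum was Fmod, at a mean of 15.5 CPM over all samples. Day 7 graft 2 held both the highest sum and the highest Thbs4. Scx, which defines tendon cells, stayed at or under 1.20 CPM in every sample, and the part of these markers in the Thbs4 result was not tested.

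**Figure D3:**
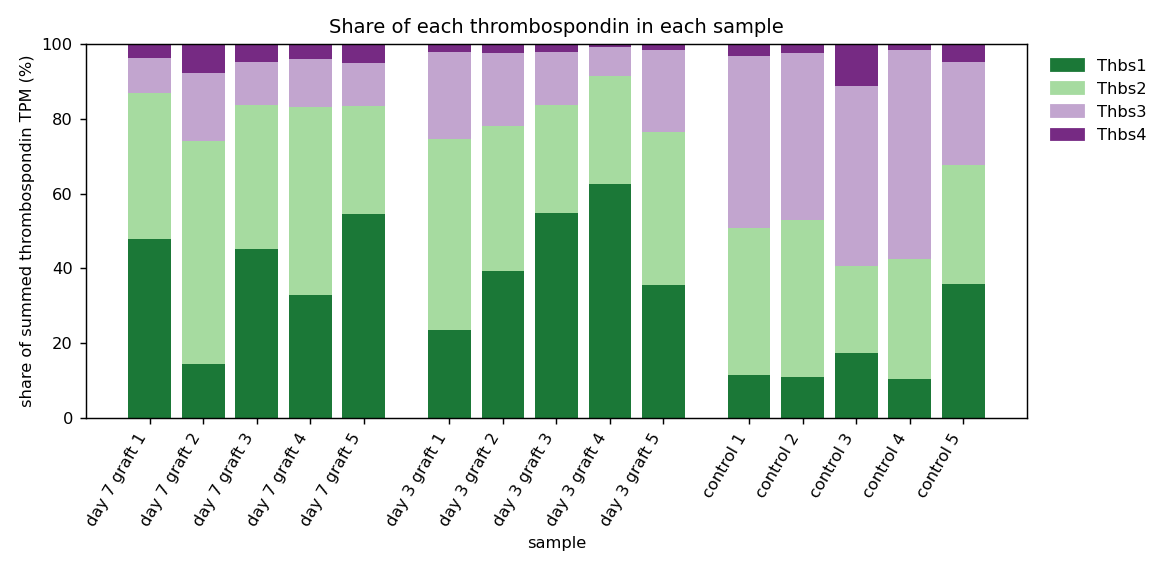
Share of the summed TPM of the 4 thrombospondins that each gene took in each sample (stacked bars, %), for day 7 grafts, day 3 grafts and controls. Thbs3 took the widest band in 4 of the 5 controls and a narrow one in the grafts, where Thbs1 and Thbs2 filled most of each bar. The Thbs3 bands depend on the transcript length used for it and on its overlap with Mtx1.

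The shares of the thrombospondin pool are given as a description, with no test. Thbs3 took 12.7 ± 3.34% of the family's TPM in day 7 grafts, 17.4 ± 6.31% in day 3 grafts and 44.4 ± 10.3% in controls (SD, n = 5 each). This share rests on the transcript length used for Thbs3, on average 1369 bases in controls and 1779 bases in day 7 grafts, and on its uncertain level beside Mtx1. Without scaling by length, controls averaged 19.1 CPM of Thbs3 and 62.0 CPM of Thbs2. Thbs1 took 39.0 ± 15.8% in day 7 grafts, 43.2 ± 15.6% in day 3 grafts and 17.2 ± 10.7% in controls. Thbs2 took 43.3 ± 11.9% in day 7 grafts, 37.7 ± 9.38% in day 3 grafts and 33.7 ± 7.35% in controls. The family summed to 642 ± 63.4 TPM in day 7 grafts, 366 ± 38.5 TPM in day 3 grafts and 37.7 ± 28.4 TPM in controls, so its sum varied less within a graft group than Thbs1 or Thbs2 did alone. Day 7 graft 2 had the lowest Thbs1 and the highest Thbs2, Thbs3 and Thbs4 of its group.

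The 2 tenascins differed in their changes, and their ratio is given below. Tnc (chr4:63959785-64047015, minus strand), the tenascin of wounds and embryos, had the largest change of the 10 genes at day 7. It was at 325, 292, 395, 255 and 185 TPM in day 7 grafts, at 81.5, 66.4, 97.5, 99.1 and 54.0 TPM in day 3 grafts and at 2.31, 2.02, 4.60, 1.27 and 22.9 TPM in controls. The 3 groups did not overlap, and control 5 was again far above the other controls. Tnc rose by 5.86 ± 0.57 in day 7 grafts (58.0-fold, adjusted p = 1.11e-06) and by 4.10 ± 0.52 in day 3 grafts (17.2-fold, adjusted p = 1.34e-05). By size its day 7 change held rank 41 of the 16051 tested genes. Without control 5 the changes were 6.49 and 4.73.

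Between the graft times Tnc differed by 1.76 ± 0.57 (3.38-fold, adjusted p = 0.0944), which did not pass although all day 7 grafts were above all day 3 grafts. The fit shares 1 estimate of the spread over the 3 groups, controls included. Without control 5 the same change of 1.76 had an adjusted p of 0.00164, and in a fit of the 2 graft groups alone it was 1.74 with an adjusted p of 0.00267. It was called in 6 of 29 alternatives, with adjusted p-values of 0.00164 to 0.201 over all 29.

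Tnxb (chr17:34660457-34719815, plus strand), tenascin X, was at 9.21, 24.9, 10.6, 16.9 and 35.7 TPM in day 7 grafts, at 42.8, 42.6, 17.0, 22.2 and 36.2 TPM in day 3 grafts and at 10.1, 11.4, 7.43, 15.6 and 21.3 TPM in controls. All 3 groups overlapped. Its log2 difference was 0.09 ± 0.42 for day 7 grafts against controls (95% interval -0.81 to 0.99, adjusted p = 0.861), 0.99 ± 0.44 for day 3 grafts against controls (95% interval 0.06 to 1.91, adjusted p = 0.062) and -0.89 ± 0.44 for day 7 against day 3 grafts (95% interval -1.84 to 0.05, adjusted p = 0.272). The day 3 difference passed the threshold in 10 of 29 alternatives, with adjusted p-values of 0.00951 to 0.158 over all of them. Day 7 graft 5, which lay toward the day 3 grafts on the second component, had the highest Tnxb of its group and the lowest Tnc.

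Postn (chr3:54361109-54391037, plus strand), periostin, was at 2856, 4974, 2810.4, 3109 and 1413 TPM in day 7 grafts, at 1207, 584, 434, 588 and 991 TPM in day 3 grafts and at 85.0, 46.5, 52.0, 85.4 and 218 TPM in controls. The 3 groups did not overlap. The lowest day 7 value was that of graft 5 and the highest day 3 value that of graft 1, the 2 libraries that lay between the graft groups. Postn rose by 4.82 ± 0.49 in day 7 grafts (28.2-fold, adjusted p = 1.71e-06) and by 2.90 ± 0.45 in day 3 grafts (7.47-fold, adjusted p = 6.8e-05) against controls.

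Day 7 against day 3 grafts gave 1.92 ± 0.54 for Postn (3.78-fold, adjusted p = 0.0544), just short of a call. It was called in 17 of 29 alternatives, with changes of 1.73 to 2.31 and adjusted p-values of 0.00241 to 0.144 over all 29. Without day 7 graft 5 and day 3 graft 1 it was 2.31 with an adjusted p of 0.0292. Markers of smooth muscle, pericytes and myofibroblasts moved with Postn and Tnc between the graft times, summing to 434 to 1436 CPM in day 7 grafts, 246 to 448 CPM in day 3 grafts and 360 to 427 CPM in controls. The 434 CPM was again day 7 graft 5, and the other day 7 grafts were at 1356 CPM or more. Of the 8 markers 5 were called higher in day 7 than in day 3 grafts, where 3.18% of all tested genes were. Against controls 4 were higher and 1 lower in day 7 grafts, with 32.2 and 28.4% of all tested genes. In day 3 grafts, where Postn and Tnc rose, 1 was higher and 3 lower, with 30.1 and 30.3% of all tested genes. The part of these markers in the Postn and Tnc values was not tested.

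SPARC and its relative SPARCL1 had the smaller changes among the 9 genes that rose. Sparc (chr11:55394500-55423183, minus strand) was at 6372, 6737, 6957, 6982 and 6074 TPM in day 7 grafts, at 4512, 5308, 3443, 5316 and 5399 TPM in day 3 grafts and at 823, 817, 670.0, 1675 and 1470.4 TPM in controls. The 3 groups did not overlap, and the day 7 grafts lay close together, with a coefficient of variation of 5.93%, against 17.5% in day 3 grafts and 41.2% in controls. Sparc rose by 2.30 ± 0.32 in day 7 grafts (4.92-fold, adjusted p = 2.72e-05) and by 1.91 ± 0.32 in day 3 grafts (3.77-fold, adjusted p = 0.000122). Day 7 against day 3 grafts gave 0.38 ± 0.35 (95% interval -0.35 to 1.12, adjusted p = 0.591). For a gene that was already abundant in controls, a 4.92-fold change was the largest gain in TPM of the 10.

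Sparcl1 (chr5:104079111-104113733, minus strand) was at 173, 171, 236, 296 and 95.9 TPM in day 7 grafts, at 86.5, 312, 118, 118 and 172 TPM in day 3 grafts and at 48.4, 41.7, 36.3, 57.4 and 43.0 TPM in controls. Grafts and controls did not overlap in TPM, and the graft groups overlapped through day 3 graft 2, which was the highest of all 15 samples. Sparcl1 rose by 1.61 ± 0.33 in day 7 grafts (3.06-fold, adjusted p = 0.000771) and by 1.39 ± 0.33 in day 3 grafts (2.62-fold, adjusted p = 0.00225), with 0.23 ± 0.35 between the graft times (adjusted p = 0.782). In CPM, which divides by scaled library sizes, day 3 grafts and controls overlapped in this gene. Day 3 graft 1 was at 152 CPM and control 4 at 179 CPM. The scaling factor of control 4, 0.746, was the lowest of all libraries. Endothelial markers summed to 622 to 1226 CPM in day 7 grafts, 438 to 1469 CPM in day 3 grafts and 414 to 540 CPM in controls. Day 3 graft 2, the highest in Sparcl1, also had the highest of these sums. Of the 7 markers 6 were called higher in day 7 grafts and 5 in day 3 grafts than in controls, and none lower. Over all tested genes 32.2 and 30.1% were called higher. The part of these markers in Sparcl1 was not tested.

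To compare pairs of these genes free of scaling between libraries, log2 ratios of TPM were taken in each sample. The ratios were tested with an exact two-sided permutation test over samples, adjusted over 12 tests. Postn and Fn1 are of different families, while the other pairs each lie within a family. With 5 samples against 5 the smallest p this design allows is 0.00794. The pairs were chosen with earlier results of these data known, so their p-values are not independent support. Tnc over Tnxb was 4.03 ± 1.18 in day 7 grafts, 1.36 ± 0.91 in day 3 grafts and -1.72 ± 1.44 in controls (SD, n = 5 each). The ratio was higher by 5.75 in day 7 grafts than in controls and by 3.08 in day 3 grafts than in controls, with no overlap in either (adjusted p = 0.0476 for each in the exact permutation test), and by 2.67 in day 7 than in day 3 grafts (adjusted p = 0.0477 in the exact permutation test). Of the controls 4 of 5 held more Tnxb than Tnc per length, and all 10 grafts held more Tnc than Tnxb.

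Postn over Fn1 was 0.95 ± 0.73 in day 7 grafts, -0.75 ± 0.65 in day 3 grafts and -0.46 ± 0.49 in controls (SD, n = 5 each). It was higher by 1.69 in day 7 than in day 3 grafts (adjusted p = 0.0477 in the exact permutation test), and 4 of 5 day 7 grafts but no day 3 graft held more Postn than Fn1 per length, with 2 of 5 controls a little above equal. For day 7 grafts against controls the difference was 1.41 (adjusted p = 0.0571 in the exact permutation test) and for day 3 grafts against controls -0.28 (adjusted p = 0.533, same test). Thbs1 over Thbs2 differed by 0.85 between day 7 grafts and controls, 1.24 between day 3 grafts and controls and -0.39 between day 7 and day 3 grafts, and Sparc over Sparcl1 by 0.68, 0.52 and 0.16 in the same comparisons. None of these 6 differences passed, with adjusted p-values of 0.0953 to 0.675 in the exact permutation test. At this group size leaving out any day 3 graft put the 4 passing ratios at an adjusted p of 0.0571 in the same exact permutation test.

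**Figure D4:**
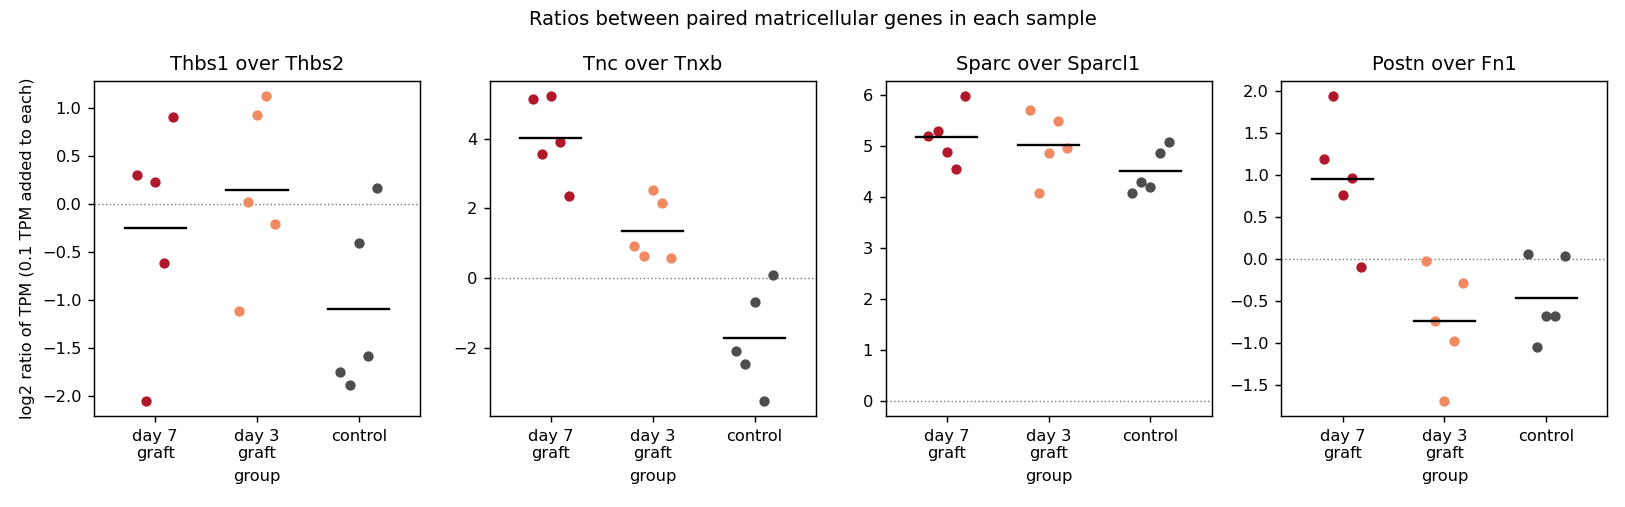
Log2 ratio of TPM between paired genes in each sample (0.1 TPM added to each gene), for day 7 grafts, day 3 grafts and controls (points, n = 5 each; black lines are means; the dotted line marks equal TPM). Tnc over Tnxb is above 0 in all grafts and below 0 in 4 of 5 controls, and Postn over Fn1 is above 0 in 4 of 5 day 7 grafts.

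Most receptors of these proteins also rose in the grafts. Of 20 integrin and other receptor genes 16 were called higher in day 7 grafts than in controls and none lower (median change 1.39, beside 0.03 for all tested genes, of which 32.2% were called higher), and 13 were higher and none lower in day 3 grafts (median 1.38, beside -0.02 for all tested genes, of which 30.1% were called higher). Itga5, the α chain of the fibronectin receptor, had the largest change, at 338 ± 84.0 CPM in day 7 grafts, 287 ± 11.7 CPM in day 3 grafts and 34.3 ± 33.0 CPM in controls (SD, n = 5 each), a rise of 3.62 ± 0.37 at day 7 (adjusted p = 1.88e-06) and 3.42 ± 0.37 at day 3 (adjusted p = 3.1e-06). Sdc1, the proteoglycan syndecan 1, rose by 3.56 ± 0.32 at day 7 (adjusted p = 6.44e-07) and 2.77 ± 0.32 at day 3 (adjusted p = 5.41e-06). Stab1, a scavenger receptor of macrophages that takes up SPARC, rose by 2.83 ± 0.30 at day 7 (adjusted p = 2.2e-06) and 2.62 ± 0.29 at day 3 (adjusted p = 4.36e-06). Cd36, a receptor of thrombospondin 1 that adipocytes and macrophages carry, was not called, at 1338 CPM in day 7 grafts, 1389 CPM in day 3 grafts and 2028 CPM in controls, and it was named after its values were seen. Between the graft times 1 of the 20 was called, where 4.88% of all tested genes were called, a share near this one. It was Notch3, a receptor of mural cells, which was higher by 1.97 ± 0.45 in day 7 grafts (adjusted p = 0.0239) and lost that call without any 1 of 7 graft libraries (adjusted p of 0.0505 to 0.0621).

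Related matricellular genes outside the 10 mostly rose as well. Of 22 listed, 20 were tested, and 15 rose and 2 fell in day 7 grafts against controls (median 2.10), where 32.2% of all tested genes rose and 28.4% fell (median 0.03). In day 3 grafts 15 rose and 3 fell (median 2.27), where 30.1% of all tested genes rose and 30.3% fell (median -0.02). Day 7 against day 3 grafts had 3 higher and 1 lower (median 0.24), where 3.18% of all tested genes were higher and 1.71% lower (median 0.02). Spp1, osteopontin, was at 2627 ± 149 CPM in day 7 grafts, 1672 ± 721 CPM in day 3 grafts and 22.1 ± 42.2 CPM in controls, a rise of 8.94 ± 0.80 at day 7 (adjusted p = 5.78e-07) and 8.18 ± 0.79 at day 3 (adjusted p = 1.16e-06). Tnn, tenascin N, was at 173 ± 56.4, 18.0 ± 8.15 and 1.83 ± 1.70 CPM in day 7 grafts, day 3 grafts and controls, higher by 7.11 ± 0.76 at day 7 than in controls (adjusted p = 2.49e-06) and by 3.36 ± 0.41 in day 7 than in day 3 grafts (adjusted p = 0.00106). Ccn4, a secreted protein of the CCN family, was likewise higher by 7.02 ± 0.66 at day 7 (adjusted p = 8.13e-07), by 4.90 ± 0.66 at day 3 (adjusted p = 2.01e-05) and by 2.12 ± 0.30 in day 7 than in day 3 grafts (adjusted p = 0.00195). Ccn2, the connective tissue growth factor, rose by 4.42 ± 0.58 at day 7 (adjusted p = 1.65e-05) and by 4.25 ± 0.58 at day 3 (adjusted p = 2.45e-05). Without control 5 the changes against controls were 9.99 at day 7 and 9.24 at day 3 for Spp1 and 7.69 and 5.57 for Ccn4, and without control 4 they were 6.34 and 4.23 for Ccn4 and 6.51 at day 7 for Tnn.

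The related genes that fell included 2 relatives of SPARC. Smoc1 was at 5.89 ± 2.36 CPM in day 7 grafts, 22.4 ± 10.3 CPM in day 3 grafts and 149 ± 76.2 CPM in controls, and it fell by 4.64 at day 7 (SE 0.49, adjusted p = 2.14e-06) and by 2.73 at day 3 (SE 0.38, adjusted p = 2.89e-05). Smoc2 fell by 1.56 at day 3 (SE 0.44, adjusted p = 0.00636) and was higher by 2.18 ± 0.42 in day 7 than in day 3 grafts (adjusted p = 0.0104). Vtn, vitronectin, fell by 2.50 at day 7 (SE 0.37, adjusted p = 4.81e-05) and by 2.20 at day 3 (SE 0.36, adjusted p = 0.000118). Smoc1 was also lower in day 7 than in day 3 grafts, with a log2 difference of -1.91 ± 0.49 (adjusted p = 0.0397), a call that ended in 11 of 29 alternatives.

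Enzymes that cross-link or cleave these proteins rose in 13 of 15 cases at each time and fell in none, with medians of 2.45 at day 7 and 2.25 at day 3, where 32.2 and 30.1% of all tested genes rose. The 13 differed in that Mmp3 was called at day 7 alone and Adamts5 at day 3 alone, and the differences between times for these 2 genes were not called (adjusted p = 0.461 and 0.0514). The collagen cross-linking oxidase Lox was at 1019.9 ± 452 CPM in day 7 grafts, 1149 ± 351 CPM in day 3 grafts and 72.3 ± 68.3 CPM in controls (4.25 ± 0.58 at day 7, adjusted p = 2.15e-05, and 4.45 ± 0.58 at day 3, adjusted p = 1.65e-05). Loxl2, of the same family, rose by 3.88 ± 0.40 at day 7 (adjusted p = 1.9e-06) and 3.97 ± 0.40 at day 3 (adjusted p = 1.78e-06). The protease Adamts4, with the largest change of the 15 at both times, rose by 4.45 ± 0.54 at day 7 (adjusted p = 7.48e-06) and 4.60 ± 0.54 at day 3 (adjusted p = 6.35e-06). Between the graft times 1 of 15 was called (4.88% of all tested genes), the membrane protease Mmp14, higher by 1.04 ± 0.28 in day 7 grafts (adjusted p = 0.047), and that call ended in 13 of 29 alternatives.

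Of 16 genes of TGF-β activation and signalling 11 rose and 1 fell in day 7 grafts against controls (median 0.67, with 32.2% of all tested genes higher and 28.4% lower). In day 3 grafts 8 rose and none fell (median 0.39, with 30.1% and 30.3% of all tested genes), and in day 7 against day 3 grafts 2 were higher and none lower (median -0.07, with 3.18% and 1.71%). The ligands Tgfb3 and Tgfb2 were both higher at day 7 than at day 3. Tgfb3 was at 73.8 ± 33.8 CPM in day 7 grafts, 11.8 ± 2.78 CPM in day 3 grafts and 10.7 ± 3.14 CPM in controls, higher by 2.54 ± 0.32 in day 7 than in day 3 grafts (adjusted p = 0.00106) and by 2.68 ± 0.34 at day 7 than in controls (adjusted p = 1.3e-05). Tgfb2 rose by 3.15 ± 0.26 at day 7 (adjusted p = 2.74e-07) and 1.78 ± 0.28 at day 3 (adjusted p = 7.03e-05), and was higher by 1.36 ± 0.19 in day 7 than in day 3 grafts (adjusted p = 0.00142). Smad6, an inhibitor of BMP and TGF-β signalling, was the 1 gene that fell, by 1.03 at day 7 (SE 0.37, adjusted p = 0.0248). The corepressor Tgif1 rose by 1.68 ± 0.24 at day 7 (adjusted p = 2.84e-05) and by 1.82 ± 0.24 at day 3 (adjusted p = 1.52e-05), with no call between the graft times (adjusted p = 0.775).

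Over the 15 samples each gene had others that ran closely with it in log2(CPM + 1), among 9813 genes that averaged 10 CPM or more. The nearest by Pearson's r were Inhba for Thbs1 (0.993), Serpinf1 for Sparc (0.994), Heatr5a for Fn1 (0.992) and Rian for Thbs2 (0.990). For Postn it was Col6a1 (0.988), for Tnc Cdk4 (0.987), for Thbs3 Enpp3 (0.979), for Sparcl1 Magi1 (0.971), for Thbs4 Fbn2 (0.966) and for Tnxb Ltbp1 (0.944). The second nearest were Csgalnact1, Adamts2, Cyp20a1 and B3gnt9 for the first 4 and Gpnmb, Gusb, Ssc5d, Efna1, Bex3 and Igfbp6 for the other 6. These values describe 3 groups far apart, which alone gives high r to genes that differ between grafts and controls, and the samples share their library depth and scaling. The deposited annotation gives Sparc and Sparcl1 the same 3 protein family entries, Thbs2, Thbs3 and Thbs4 a common 3, and Fn1 and Tnc a common 1, and it lists none for Thbs1 and Tnxb.

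Markers of several cell types moved beside the 9 genes that rose. The counts of called markers below stand beside the shares over all tested genes. Those were 32.2% higher and 28.4% lower in day 7 grafts against controls, and 30.1 and 30.3% in day 3 grafts against controls. The 10 fibroblast and adipose progenitor markers summed to 26663 to 31663 CPM in day 7 grafts, 13691 to 28688 CPM in day 3 grafts and 1965 to 8296 CPM in controls, with 7 higher and 1 lower in day 7 grafts and 6 higher and none lower in day 3 grafts. Most of the sum in the grafts came from the collagens Col1a1 and Col3a1. All 8 macrophage markers rose at both times, and they summed to 8801 to 11753 CPM in day 7 grafts, 4332 to 10224 CPM in day 3 grafts and 1338 to 3550 CPM in controls. Platelet and megakaryocyte markers, which bear on Thbs1, summed to 198 to 903 CPM in day 7 grafts, 495 to 1698 CPM in day 3 grafts and 16.7 to 49.4 CPM in controls. In the grafts nearly all of that sum was Pf4 and Ppbp, which are chemokines. Of the 7 markers 4 were tested, with 3 higher and 1 lower in day 7 grafts and 3 higher and none lower in day 3 grafts. At day 7 the 3 were Pf4, Ppbp and the platelet receptor gene Treml1, which was at a low level. Itga2b was lower in day 7 grafts than in controls (3.88 against 10.7 CPM, adjusted p = 0.00568). The platelet receptor genes Gp9, Gp1ba and Gp6 stayed at or under 0.843 CPM in every sample and were not tested. Lymphocyte and lymph node markers were lower in 8 of 8 at both times, summing to 6.19 to 136 CPM in day 7 grafts, 9.74 to 50.0 CPM in day 3 grafts and 120 to 1766 CPM in controls. Schwann cell markers were lower in 6 of 6 at both times, and neutrophil markers higher in 4 of 6. The part of these cells in the matricellular genes was not tested.

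**Figure D5:**
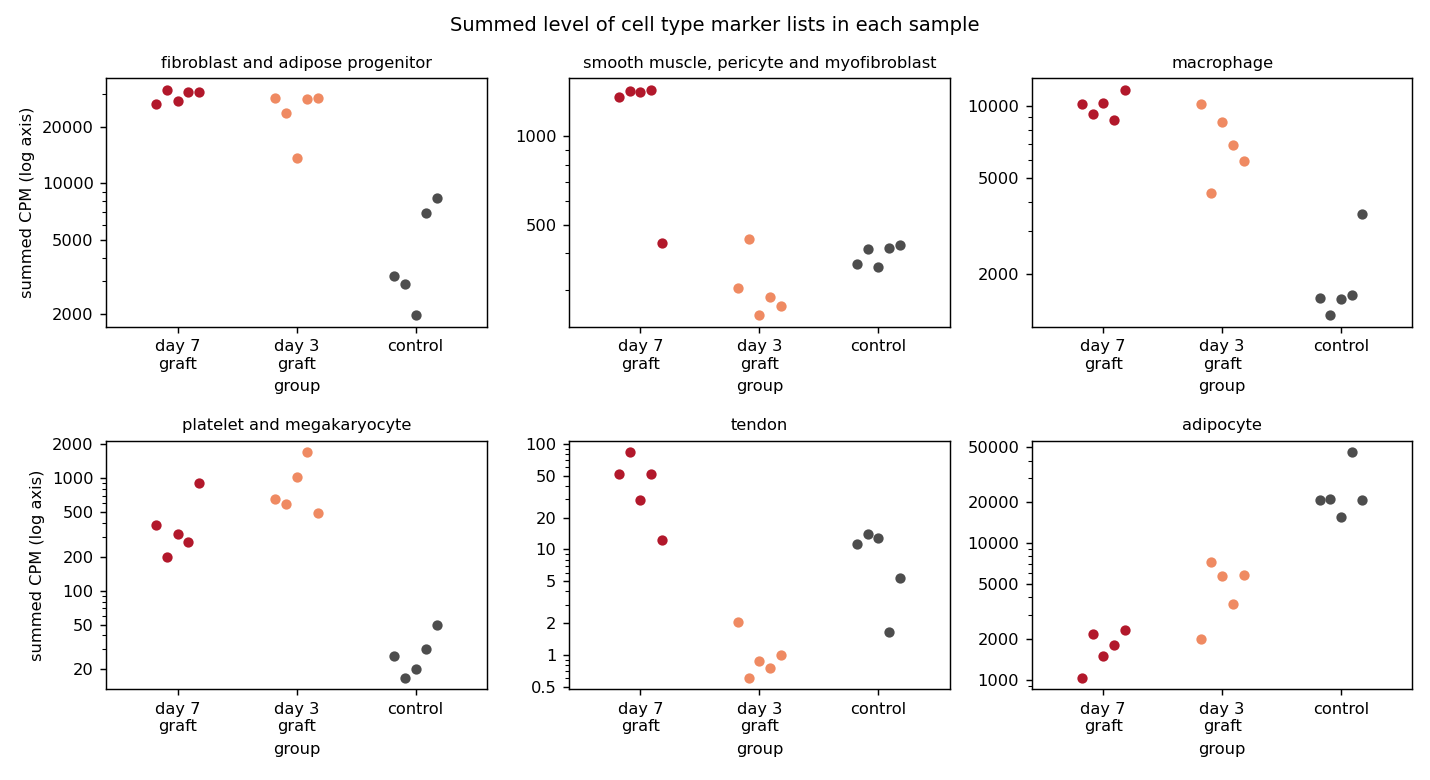
Summed CPM of 6 lists of cell type markers in each sample (log axes that differ between panels), for day 7 grafts, day 3 grafts and controls (points, n = 5 each). Fibroblast, macrophage and platelet sums are higher in all grafts than in all controls, adipocyte sums are lower, and day 7 graft 5 is apart from its group for smooth muscle markers, at 434 CPM.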

How the data were processed

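Poly(A) RNA of 15 samples was sequenced after column extraction and a stranded mRNA kit, per the labels' protocols. Per the submitters' processing notes the tools were STAR 2.7.1a, RSEM 1.3.1 and cutadapt 2.8, on the build mm10, with no settings given. The authors deposited 1 matrix with estimated counts, RPKM and TPM per gene and sample, per the file headers. All 45 value columns matched a sample, and the 118 gene symbols that occur more than once were told apart by gene ID. The deposited counts carry digit separators, which were removed before use. From these counts, limma 3.58.1 (voom) in R 4.3.3 fitted all 15 samples as 3 groups, with trimmed mean of M-values scaling (trims of 30% and 5%, factors 0.746 to 1.14). A gene was tested with at least 0.3894 CPM in 5 samples (10 counts in a library of median size) and at least 15 counts in all. Sample totals ran from 20.2 to 32.0 M counts in day 7 grafts, 23.7 to 29.4 M in day 3 grafts and 17.1 to 31.8 M in controls. Tested on simulated data, the fit recovered 98.5% of 4-fold changes for day 7 grafts against controls (16256 genes), 98.4% for day 3 grafts against controls (16233 genes) and 96.9% for day 7 against day 3 grafts (16265 genes), and 28.8, 29.9 and 31.3% of 2-fold changes. The simulated counts had the same spread for every gene and few changed genes, unlike these data. The recovered shares therefore do not give the power of the comparisons here. No 2 libraries of a group were alike, with at most 0.106% identical counts. Levels use the deposited TPM, ratios add 0.1 TPM, and RPKM served only to derive the transcript length behind each value.

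The 10 genes, the pairs of the ratios, 4 gene lists (73 genes) and 14 marker lists (96 genes) were chosen with earlier results of these data known. No list or pair is therefore independent support. Named list genes are up to 3 called genes per direction with the largest change and at least 5 CPM in 1 group, and others are named where a count was small. A result that this rule names is not reported here. In all, 29 alternatives of scaling, filter, samples, weights and unit were run. No sequences are printed, since no sequence table was used here.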

Additional observations from a re-analysis of the deposited data

Results flagged for a closer look

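Of 30 combinations of gene and group, 4 held a sample far from the rest of its group in CPM. Chance flags about 1 group in 20 if values are normal and groups independent. These were unlogged CPM values, and control 5 gave both the Thbs1 and the Tnc flag, so that share is only a rough guide. Thbs1 was at 145 CPM in control 5, against 11.9 to 20.2 CPM in the other controls. Tnc was at 125 CPM in control 5, against 10.6 to 22.3 CPM in the other controls. Control 5 also had the highest macrophage marker sum of the controls, at 3550 CPM. It was highest too for neutrophil markers, at 175 CPM against 19.1 to 34.5 CPM in the other controls. The same held for fibroblast and adipose progenitor markers (8296 CPM, others 1965 to 6900 CPM) and platelet and megakaryocyte markers (49.4 CPM, others 16.7 to 30.2 CPM). The part of any of these cells in its Thbs1 and Tnc was not tested.

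Thbs4 stood apart in both graft groups, in opposite directions. It was at 102 CPM in day 7 graft 2, against 49.5 to 62.8 CPM in the other day 7 grafts, and this library also had the highest tendon marker sum, at 83.2 CPM. Thbs4 was at 6.48 CPM, or 2.89 TPM, in day 3 graft 4, against 6.69 to 7.89 TPM in the other day 3 grafts.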

How the results depend on the processing

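No called change of a matricellular gene reversed in the 29 alternatives, Tnxb in day 7 grafts against controls, called in none, ranged from -0.22 to 0.47, and each graft-against-control call of the 9 genes held in all of them. Day 3 grafts against controls gave 9 to 10 genes called higher when single libraries were left out, the tenth being Tnxb, and the 9 of day 7 grafts stayed 9. Day 7 against day 3 grafts gave 1 gene higher in the fit as reported and 1 to 3 when single libraries were left out. It gave 2 with upper quartile scaling, library totals, limma-trend on log2(CPM + 1) or log2(TPM + 0.1), and without day 3 graft 1 and day 7 graft 5. It gave 3 without a filter, on log2(TPM + 1) and without controls 2 and 5, and 4 with only the groups compared and with sample quality weights, which also gave 1 lower, Tnxb. The added genes were Postn, Tnc and Thbs2, and the cause was not tested.

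Over all genes, day 7 against day 3 grafts gave 510 higher and 274 lower as reported, 229 to 992 and 89 to 617 with single libraries left out, 745 and 650 with only the groups compared (53.4% higher, against 65.1%), 2135 and 1533 with quality weights, and 922 and 580 without day 3 graft 1 and day 7 graft 5. On log2(TPM + 1) and log2(TPM + 0.1) the genes lower than in controls numbered 2585 and 2507 at day 7 (4566 as reported) and 2967 and 2952 at day 3 (4856 as reported). These scales moved the median change of all genes by 0.30 and 0.40 at day 7 and by 0.23 and 0.30 at day 3, against controls.

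The 4 passing ratios became 0 to 5 with single libraries left out, where fewer samples raise the smallest p the test allows. With the replicate block, which paired samples by number, 2 genes were called higher between the graft times, and 9 and 10 were higher than in controls at day 7 and day 3. The ratios were then tested by an exact sign-flip test of the 5 paired differences. With 5 pairs this test cannot reach a p under 0.05, so no ratio could pass whatever the data. All 4 were at an adjusted p of 0.188 in the exact sign-flip test. The samples share only a number: same-numbered deviations correlated at -0.18 to 0.34 between day 7 and day 3 grafts, -0.11 to 0.17 between day 7 grafts and controls and -0.16 to 0.26 between day 3 grafts and controls, and at most 1 of 5 matched its own number best. Depth limits Thbs4 in controls most, with 25 to 221 counts per sample.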

Other observations

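The deposited counts and RPKM of a gene imply the transcript length used for it in each sample, which can shift with the mix of isoforms. This comparison was added after the data were seen, as an exact permutation test per gene adjusted over 30 tests, and no difference passed. For Thbs3 the implied length was 1779 bases in day 7 grafts, 1669 bases in day 3 grafts and 1369 bases in controls, longer by 29.9% in day 7 grafts than in controls with no overlap (adjusted p = 0.0954 in the exact permutation test). For Postn it was 2666 bases in day 7 grafts, 2616 bases in day 3 grafts and 2431 bases in controls, longer by 9.67% in day 7 grafts than in controls with no overlap (adjusted p = 0.0954, same exact test). For Thbs2 it was 5616 bases in day 7 grafts, 5626 bases in day 3 grafts and 5620.4 bases in controls.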
